A study of Bos taurus with 134 samples.

Results

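The oocytes described here are those with both a transcriptome and a methylome, chosen as the in vitro matured (IVM) and in vivo matured (IVO) oocytes whose library number carried finite RNA values and a methylation column. They comprised 42 of the 88 oocytes of the series, with 23 IVM and 19 IVO oocytes. All 46 oocytes with a methylation column had been given an RNA library too, but 3 IVM and 1 IVO oocyte held no finite RNA value. The study asked how maturation in culture changes bovine oocytes at the metaphase II (MII) stage. All oocytes were Wild-type and came from 4 non-lactating, non-pregnant Holstein heifers of 15 to 18 months. IVO oocytes were collected with expanded cumulus from follicles of at least 8 mm, 24 h after GnRH, in heifers given 180 mg of FSH, and were denuded at once. IVM oocytes were matured in culture, and the label text read here ends before their collection and culture are described. The labels do not name the cow of an oocyte, so each group was treated as 1 sample. Correlations across oocytes are therefore descriptions, without p-values, and oocytes of a group may share a cow, a culture and a round of library preparation. IVM oocytes carried library numbers 1 to 18 (16 oocytes) or 39 to 46 (7 oocytes), whereas all IVO oocytes lay in 19 to 38. Maturation and library number can therefore not be told apart between the groups. For oocyte 18, the library name (in vitro) was followed over the RNA title, which says in vivo.

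A fully grown oocyte is transcriptionally silent and lives on mRNA stored during growth, which is translated, deadenylated or degraded as meiosis proceeds. Its DNA methylation is laid down earlier, while the oocyte grows, and follows transcribed gene bodies, which leaves highly methylated domains beside weakly methylated ones. Mitochondrial DNA is present in very many copies in an oocyte, in contrast to the nuclear genome. In scM&T-seq, the polyadenylated mRNA of a lysed oocyte is captured on beads and the remaining DNA is bisulfite converted, so both measurements are read from the same cell.

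The RNA values covered 7022 genes and had been scaled by the authors so that the 75th percentile was 61 in each of the 42 oocytes. In IVM, the number of genes with a value above 0 ranged from 2924 genes in oocyte 14 to 5354 genes in oocyte 46, with a median of 4852. In IVO, it ranged from 2032 genes in oocyte 31 to 5559 genes in oocyte 23, with a median of 4500. The ranges of the groups overlapped, and each group held a few oocytes far below its median. IVO oocytes 29 and 31, with 2048 and 2032 genes, had no value between 0 and 61, whereas the lowest value above 0 was at most 5 in each other oocyte. The 75th percentile used for scaling was thus their lowest value above 0, which bears on all values of those libraries. Their summed values were 1.21e+06 and 1.05e+06, against an IVO median of 6.63e+05. Low values in those libraries were also coarse, and the number of reads behind a value was not used here. In all, 1213 genes were above 0 in each of the 42 oocytes and 125 genes were at 0 in each of them. Genes are listed by a number that is not paired with a name, so no gene is named.

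The 100 highest genes of an oocyte held between 31.4% (oocyte 45) and 42.7% (oocyte 9) of its summed value in IVM, with a median of 33.6%. In IVO, this share ranged from 30.7% (oocyte 21) to 38.1% (oocyte 34), with a median of 34.2%. IVM oocytes 9, 14 and 16, at 42.7, 41.8 and 41.1%, lay clearly above each IVO oocyte, and the ranges of the other oocytes overlapped. A pair of IVM oocytes shared a median of 67 of their 100 highest genes (47 to 89), a pair of IVO oocytes 72 (56 to 89), and an IVM with an IVO oocyte 68. Across all 42 oocytes, 276 genes were among the 100 highest of at least 1 oocyte and 23 genes were among them in every oocyte. The highest gene of an oocyte held a median of 1.57% of the summed value in IVM and 1.60% in IVO. Only 8 different genes took that place in the 42 oocytes, and 1 of them did so in 14.

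The first principal component (PC1) of log2(value + 1), taken over the 500 genes of highest variance, held 28.0% of the variance and the second 5.62%. PC1 followed the number of genes above 0, with a Spearman's rho of 0.82 and a Pearson's r of 0.95 in IVM (n = 23) and 0.93 and 0.94 in IVO (n = 19). The position ranged from -56.1 (oocyte 14) to 22.5 (oocyte 2) in IVM, with a median of 15.4, and from -64.3 (oocyte 29) to 22.1 (oocyte 23) in IVO, with a median of 4.49. Most oocytes lay close together at the upper end, and a tail of IVM oocytes 4, 14, 16, 18 and 41 and IVO oocytes 29, 31, 35, 36 and 37 stretched to positions below -18, with 5 further oocytes between -11.4 and -1.14. Within IVM 39 to 46 the relation of PC1 to genes above 0 was weaker (rho 0.39, r 0.67, n = 7, and r -0.24 without 2 oocytes). PC1 thus followed the number of detected genes in IVM 1 to 18 (rho 0.91) and IVO, and less so in IVM 39 to 46.

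Methylation was given as the percentage of methylated CpG calls in 41322 windows, without the number of calls, so depth per window is unknown. Windows with a value numbered from 8050 (oocyte 4) to 32759 (oocyte 46) in IVM, with a median of 27628, and from 6570 (oocyte 30) to 32331 (oocyte 28) in IVO, with a median of 22854. The mean over windows ranged from 51.1% (oocyte 12) to 76.3% (oocyte 41) in IVM, with a median of 56.0%, and from 55.8% (oocyte 28) to 77.4% (oocyte 30) in IVO, with a median of 60.2%. The highest means were found in oocytes with few windows, and the groups overlapped in both measures. In the same oocytes, the share of windows at exactly 0 or 100% fell as more windows were measured, with a rho of -0.92 in IVM and -0.93 in IVO. It ranged from 28.7% (oocyte 8) to 78.5% (oocyte 41) in IVM and from 31.5% (oocyte 28) to 81.4% (oocyte 30) in IVO. The 9012 windows with a mean of at least 80% over all oocytes had means of 87.1 to 90.5% in IVM and 87.6 to 90.8% in IVO, a range that their selection keeps narrow. The number of windows and the window mean were therefore not separate properties of an oocyte, with a rho of -0.66 in IVM and -0.89 in IVO between them.

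The first question was whether oocytes with a fuller transcriptome also had a fuller methylome. With 3 RNA measures and 3 methylation measures, 9 relations were computed in each group, 18 in all. IVM oocyte 4 was near the bottom in both assays, with 3045 genes above 0, a PC1 position of -50.0 and 8050 windows. IVM oocyte 46 was high in both, with 5354 genes, a PC1 position of 20.1 and 32759 windows. Within IVM, PC1 rose with the number of windows measured (rho 0.54, r 0.55, n = 23). Without oocytes 4 and 14, which lay farthest from the median of PC1, r was 0.62. The number of genes above 0 gave a rho of 0.42 and an r of 0.50, and an r of 0.51 without the same oocytes. The relation had the same direction within both ranges of library numbers, with a rho of 0.42 for PC1 in 1 to 18 (n = 16) and 0.89 in 39 to 46 (n = 7). Without oocytes 41 and 45, which leaves 5 oocytes of 39 to 46, rho was 0.90 and r fell from 0.94 to 0.45. For genes above 0 in 39 to 46, the rho of 0.39 became -0.70 without oocytes 41 and 46.

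Within IVO, the relation was weaker for PC1 (rho 0.39, r 0.38, n = 19) and for genes above 0 (rho 0.26, r 0.34). Without oocytes 29 and 31, r was 0.27 and 0.23. With IVO oocytes of at least 15000 windows only (n = 14), rho was 0.08 for PC1 and -0.07 for genes above 0, and the same limit in IVM (n = 19) gave 0.45 and 0.29. The limit narrows the range of the measure that is correlated, which by itself can weaken a rho. The share of the 100 highest genes showed the clearest relation in IVO, falling as windows increased (rho -0.55, r -0.61, and r -0.70 without oocytes 31 and 34). With at least 15000 windows, this rho was -0.24. In IVM the same share was nearly unrelated to the number of windows (rho -0.12, r -0.10, and r -0.27 without oocytes 9 and 14). The difference between the groups was not tested.

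The assays did not fall together in every oocyte. IVM oocyte 14 had the lowest number of genes of its group and a PC1 position of -56.1, but 27966 windows, close to the group median, and a window mean of 53.6%. IVO oocyte 31, with 2032 genes, had 21969 windows. The reverse was seen in IVM oocyte 3, with 5128 genes above 0 and a PC1 position of 19.1 but only 11938 windows. IVO oocyte 30, which had the fewest windows of all, had 4160 genes and a PC1 position of -4.81. Each group thus held oocytes low in 1 assay alone and oocytes low in both, such as IVM oocyte 4 and IVO oocyte 29 (7554 windows), and the cause was not tested.

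**Figure D1:**
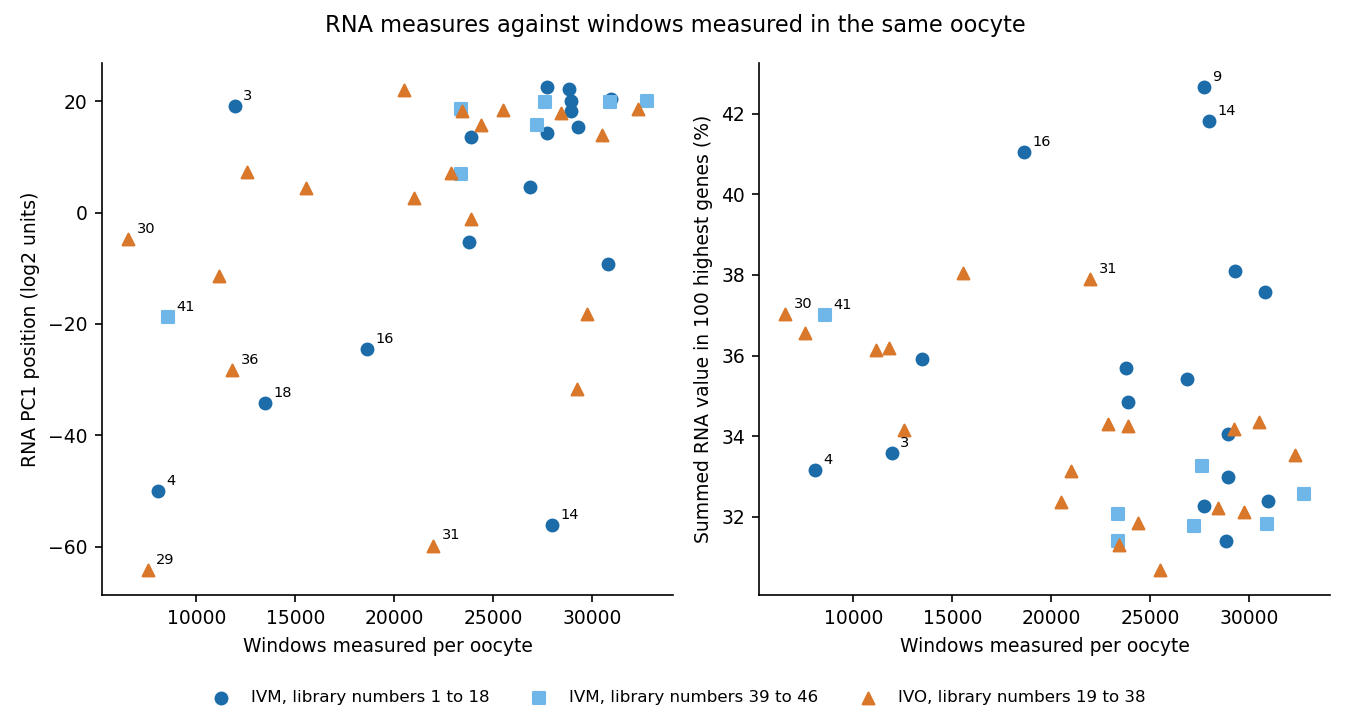
Each point is an oocyte with both assays, with the number of windows measured on the horizontal axes and the PC1 position (left) or the percentage of the summed RNA value held by the 100 highest genes (right) on the vertical axes. Numbers beside points are library numbers; oocytes 14 and 31 combined PC1 positions of -56.1 and -59.8 with 27966 and 21969 windows, and oocyte 3 a position of 19.1 with 11938 windows.

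The next question was whether the methylation level itself moved with the transcriptome. In IVM, the window mean fell as the number of genes above 0 rose (rho -0.46, r -0.50, n = 23, and r -0.56 without oocytes 4 and 14). Given the number of windows measured, the partial rank correlation was -0.27. Within library numbers 1 to 18 the rho was -0.29, or 0.085 given the number of windows, and within 39 to 46 it was -0.86, or -0.85 given them. In IVO, the rho was -0.14 and r -0.23, and given the number of windows it was 0.21. PC1 gave a rho of -0.28 and an r of -0.51 in IVM, and -0.27 and -0.25 in IVO. Given the number of windows, these became 0.11 and 0.18. The share of the 100 highest genes gave a rho of 0.14 (r 0.13) in IVM and 0.37 (r 0.49) in IVO, and the IVO value became -0.30 given the number of windows. The relations of PC1 in both groups, and those of the other RNA measures in IVO, thus took the opposite sign once the number of windows was accounted for. In IVM, genes above 0 kept their sign over all oocytes but not within library numbers 1 to 18. In the 9012 highly methylated windows, PC1 gave a rho of 0.30 in IVM and 0.42 in IVO. Oocytes with a high PC1 position tended to have the higher values in those windows in both groups, but within IVM 39 to 46 the rho was 0.

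Mitochondrial methylation was read from 7 windows, which together ran from MT:130 to MT:14983 on UMD3.1 and were measured in all 46 oocytes. The mean over these windows ranged from 8.79% (oocyte 4) to 32.4% (oocyte 13) in IVM library numbers 1 to 18, with a median of 23.7%. In library numbers 39 to 46 it ranged from 2.48% (oocyte 46) to 13.2% (oocyte 43), with a median of 5.70%. In IVO it ranged from 2.69% (oocyte 35) to 19.8% (oocyte 38), with a median of 9.07%. The IVM oocytes of the lower numbers were high and overlapped with the others only at their lower end. Values were higher toward the end of the mitochondrial genome in each set of oocytes, although not from each window to the next. The median in the first window (130 to 2857) was 13.6% in IVM 1 to 18, 1.95% in IVM 39 to 46 and 3.44% in IVO, and in the last (13222 to 14983) it was 36.7, 11.6 and 20.8%. The last window was the highest of the 7 in 39 of the 42 oocytes, and the first was the lowest in 32. The ratio of the last to the first window had a median of 2.65 in IVM 1 to 18, 4.78 in IVM 39 to 46 and 5.45 in IVO. The windows ranked the oocytes alike, with a median rho over the 21 pairs of windows of 0.89 in IVM 1 to 18, 0.86 in IVM 39 to 46 and 0.82 in IVO. The mitochondrial level was therefore shared by the windows of an oocyte's library, on top of a gradient along the molecule present at high and low levels. Bisulfite conversion of each library was not assessed here, so methylated and unconverted cytosines cannot be told apart in these values.

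**Figure D2:**
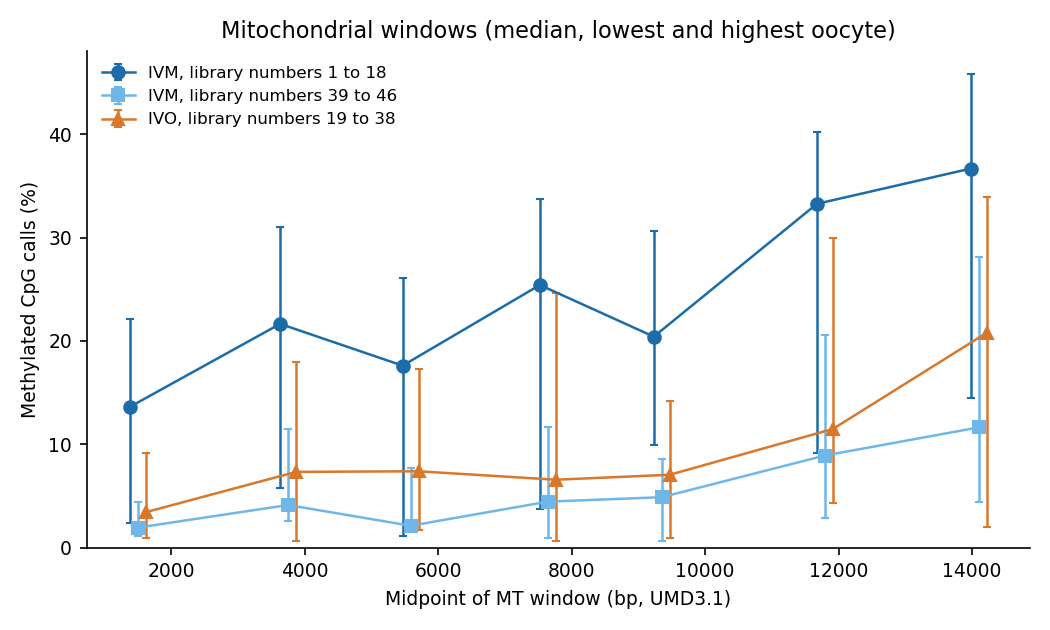
Percentage of methylated CpG calls in the 7 mitochondrial windows, at the midpoint of each window in bp on UMD3.1, with the median oocyte as the symbol and the lowest and highest oocyte as the bars. The last window had medians of 36.7% in IVM 1 to 18, 11.6% in IVM 39 to 46 and 20.8% in IVO, and the first 13.6, 1.95 and 3.44%.

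Because the mitochondrial level differed between the ranges of library numbers in IVM, its relation to RNA was read within each. In library numbers 1 to 18, PC1 gave a rho of 0.32 (r 0.45, n = 16) and genes above 0 a rho of 0.19 (r 0.39), and without oocytes 4 and 14 r was 0.27 and 0.15. In IVO, PC1 also gave a rho of 0.32 (r 0.27, and 0.38 without oocytes 29 and 31) and genes above 0 a rho of 0.26 (r 0.14, and 0.19 without them). All 7 mitochondrial windows had a positive rho with PC1 in both sets, from 0.24 to 0.40 in IVM 1 to 18 and from 0.15 to 0.42 in IVO. As the windows ranked the oocytes alike, these 7 values are not independent and add little to the rho of the mean. In IVM 39 to 46, genes above 0 fell with the mitochondrial level (rho -0.86, r -0.71, n = 7), and PC1 was nearly unrelated (rho -0.11). Over all IVM oocytes, the rho was 0.03 for PC1 and -0.10 for genes above 0. The mitochondrial level in IVM 1 to 18 also rose with the number of windows measured (rho 0.57, r 0.73, and r 0.38 without 2 oocytes), which was not so in IVO (rho -0.01). Given the number of windows, the partial rank correlation of PC1 with the mitochondrial level was 0.10 in IVM 1 to 18 and 0.35 in IVO, and that of genes above 0 was -0.084 and 0.27. The share of the 100 highest genes gave a rho of 0.36 (r 0.32) over all IVM oocytes, but -0.08 within 1 to 18 and 0.11 within 39 to 46. The pooled value was thus not seen within either range, and the ranges also differed in the share, with medians of 35.1% in 1 to 18 and 32.1% in 39 to 46. In IVO the rho was -0.13 (r -0.10).

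Gene by gene, the level of 3626 genes with a mean of at least 10 was ranked against the same measures. A Spearman's rho of at least 0.5 in size with the window mean was found for 196 genes in IVM (5.41%), of which 99 rose and 97 fell with methylation. The share depended on the oocytes used, at 10.6% in library numbers 1 to 18 (n = 16) and 2.76% in IVM oocytes with at least 15000 windows (n = 19). In IVO, 138 genes (3.81%) passed, with 66 rising and 72 falling. The counts were thus balanced between directions, and the median rho over all genes was -0.02 in IVM and 0.01 in IVO. Both groups shared 8 of these genes, 5 of them with the same sign. They made up 4.08% of the genes found in IVM, close to the 3.81% of all genes found in IVO, so the overlap does not show whether the same genes followed methylation. Over all 3626 genes, 52.1% had the same sign in both groups, and the rhos of the groups were correlated at 0.08 across genes, where genes are not independent replicates. Between IVM 1 to 18 and IVM 39 to 46 (n = 7), 56.7% of all genes had the same sign, with a correlation of 0.22. Of the 383 genes that passed in 1 to 18, 256 (66.8%) had the same sign in 39 to 46. With the number of windows measured, 123 genes (3.39%) passed in IVM and 277 (7.64%) in IVO, and 57.1% of all genes had the same sign. In library numbers 1 to 18 (n = 16), 292 of the 3626 genes passed, and 202 of these (69.2%) had the same sign in 39 to 46, against 59.1% of all genes. The number of genes above 0, which is counted from the same gene values, was followed by 561 genes (15.5%) in IVM and 735 (20.3%) in IVO. Of these, 230 genes passed in both groups, 228 of them with the same sign, and 72.2% of all genes had the same sign. As that measure and the gene levels share their values, these counts are no reference for those with methylation.

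With the mitochondrial level, 258 genes (7.12%) passed in IVM and 364 (10.0%) in IVO, and 46.9% of all genes had the same sign. When only IVM library numbers 1 to 18 were used (n = 16), 183 of the 3626 genes passed. The same sign as in IVO was found for 61.4% of all genes and for 143 of those 183 (78.1%). The rhos of these sets were correlated at 0.32 across genes. Between IVM 1 to 18 and IVM 39 to 46 (n = 7), 47.8% of all genes and 94 of the 183 (51.4%) had the same sign. The correlation was -0.014. With 7 oocytes, where 817 of the 3626 genes passed, this does not decide whether directions were shared within IVM. Given PC1, an adjustment chosen after the data were seen, 149 of the 3626 genes passed in IVM 1 to 18. The same sign in IVO was found for 53.5% of all genes and 84 of the 149 (56.4%). Given genes above 0 instead, also chosen after the data were seen, 177 of the 3626 genes passed. Here 57.3% of all genes and 122 of the 177 (68.9%) had the same sign. The shared directions were thus fewer under both adjustments, and fewest given PC1. Both adjusting measures are computed from the same gene values, and PC1 from both groups together. A fall can therefore follow from the adjustment itself, and no conclusion is drawn from it. What part depth took in the shared directions was not tested.

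Distances between oocytes gave the same comparison for whole profiles. RNA distance was 1 minus Pearson's r of log2(value + 1) over the 3626 genes, and methylation distance was the mean absolute difference over windows measured in both oocytes. Between IVM oocytes (253 pairs), RNA distance ranged from 0.072 to 0.45, with a median of 0.24, and methylation distance from 21.4 to 39.9 percentage points, with a median of 28.9. Between IVO oocytes (171 pairs), these were 0.070 to 0.46, with a median of 0.27, and 23.0 to 38.6 percentage points, with a median of 31.7. The groups covered nearly the same ranges. Oocytes apart in RNA were also apart in methylation, with a rho of 0.49 (r 0.49) in IVM and 0.32 (r 0.25) in IVO. Pairs share oocytes and are not independent points. Within IVM 1 to 18 the rho was 0.48 (120 pairs), and within IVM 39 to 46 it was 0.90 (21 pairs of 7 oocytes).

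Each distance followed the lower count of windows or of genes in a pair. Methylation distance had a rho of -0.84 in IVM and -0.60 in IVO with the lower number of windows of the pair, and RNA distance a rho of -0.90 and -0.80 with the lower number of genes above 0, which is counted from the same values. Given both, the partial rank correlation of the distances was 0.07 in IVM and 0.11 in IVO, and -0.10 within IVM 1 to 18, but 0.75 within IVM 39 to 46. The number of windows alone brought it to 0.07 and 0.09, and the number of genes alone to 0.39 and 0.29. Apart from the 7 oocytes of 39 to 46, the distances were thus little related in partial correlations that accounted for the number of windows. Leaving out oocytes with few windows kept a positive rho. The oocytes left still differed in windows, and no partial correlation was computed among them, so these values are not comparable with the partial ones. With at least 15000 windows, the rho was 0.42 in IVM (n = 19) and 0.35 in IVO (n = 14). Without the 2 oocytes with the fewest windows, it was 0.44 and 0.40.

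**Figure D3:**
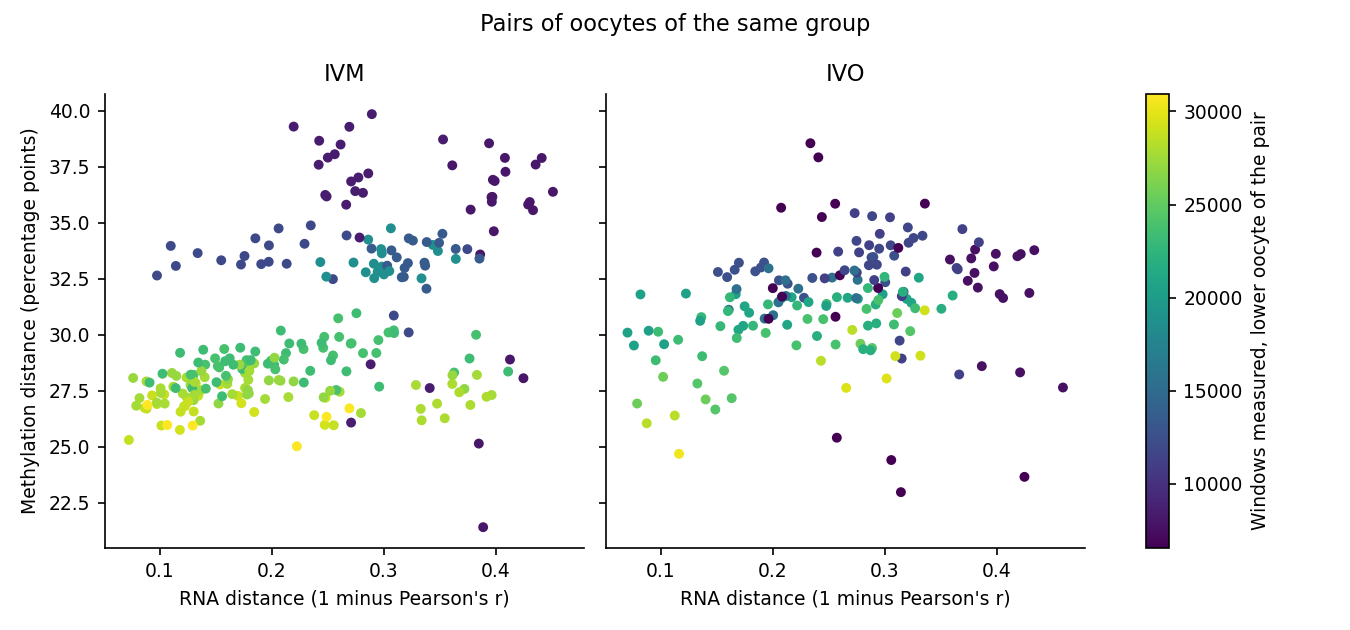
Each point is a pair of oocytes of the same group, with RNA distance (1 minus Pearson's r) on the horizontal axis, methylation distance in percentage points on the vertical axis, and the number of windows measured in the poorer oocyte as the colour. IVM spanned 21.4 to 39.9 and IVO 23.0 to 38.6 percentage points, and the lowest point of each group was a pair in which both oocytes had few windows.

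IVM oocytes 6 and 8 were the closest by RNA (0.072), with a methylation distance of 25.3 points over 24010 shared windows, and oocyte 8 was the closest to oocyte 6 in both assays. IVO oocytes 19 and 23 were the closest by RNA (0.070), at 30.1 points. The closest pairs by methylation were IVM 4 and 41 (21.4 points over 3958 shared windows) and IVO 30 and 38 (23.0 points over 3658 shared windows), whose RNA distances of 0.39 and 0.31 were above the group medians. Those were pairs of oocytes with few windows, in which most values were 0 or 100%. Pairs of a poorly and a well measured oocyte were the farthest, namely IVM 12 and 41 (39.9 points) and IVO 28 and 30 (38.6 points).

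For each oocyte, the closest oocyte of its own group was then found in each assay. Both assays picked the same neighbour for 5 of 23 IVM oocytes (21.7%) and for 1 of 19 IVO oocytes (5.26%), where a single pick among the others would give 4.55 and 5.56%. Multiplying how often each oocyte was picked in the 2 assays gives 5.87 shared picks in IVM and 1 in IVO, so the observed counts were no higher than the repeated picks alone would give. The closest oocyte by RNA had a median rank of 5 by methylation in IVM, where the middle rank is 11.5, and of 6 in IVO, where it is 9.5. These middle ranks do not account for the repeated picks. All 5 shared picks in IVM were oocyte 8, chosen by oocytes 1, 2, 6, 10 and 17. Oocyte 8 was the closest by methylation for 15 IVM oocytes and the closest by RNA for 9, and had 30962 windows and 5333 genes above 0. In IVO, oocyte 28 was the closest by methylation for 10 oocytes and oocyte 19 the closest by RNA for 9, and the shared pick was oocyte 28 for oocyte 21. IVO oocyte 30, with the fewest windows, was the closest by methylation for 5 oocytes (25, 29, 34, 36 and 38), which had between 7554 and 15528 windows, below the IVO median. A few oocytes thus served as neighbours of most others in each assay.

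Coverage of single chromosomes was compared through the share of a chromosome's windows that was measured, divided by the oocyte's share over all nuclear windows. Of all oocytes and chromosomes, the quotient fell under 0.5 only for chromosome 14 of IVM oocyte 12, at 0.44. In that oocyte, 381 of 1160 windows of chromosome 14 had a value (32.8%), against 74.5% over the nuclear genome. In the other 25 IVM oocytes, the quotient of chromosome 14 was 0.98 to 1.14, and on the other chromosomes of oocyte 12 it was 0.92 to 1.14. Chromosome 14 of that oocyte therefore stood apart both from its other chromosomes and from chromosome 14 of other oocytes. The loss ran over the whole chromosome: in 4 equal runs of its windows from start to end, 27.9, 33.8, 35.5 and 34.1% were measured, against medians of 49.3, 70.3, 80.0 and 69.7% in the other IVM oocytes. The windows that were measured differed too, as 61.9% of them were at exactly 0 or 100%, against 31.8% on the other chromosomes of oocyte 12. Their mean was 62.1%, or 11.1 percentage points above those chromosomes, whereas this difference was -6.43 to 2.21 points in the other IVM oocytes. The oocyte had 4214 genes above 0 and a PC1 position of -9.30, inside the range of its group. As genes are not paired with positions, the RNA of chromosome 14 was not analysed here.

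Quotients above 1.5 were found for chromosome 4 of IVM oocyte 3 (1.52), chromosome 9 of IVO oocyte 25 (1.61), chromosome X of the same oocyte (just above 1.5) and chromosome 28 of IVO oocyte 34 (1.57). These oocytes had 11938, 12559 and 15528 windows, and their other chromosomes were uneven as well, down to 0.64, 0.62 and 0.65. Chromosome 14 of oocyte 12 differed from them in that its oocyte was otherwise even and among the best measured, with 30779 windows. The spread of the quotient over chromosomes was larger in oocytes with a low PC1 position in IVM (rho -0.63, r -0.35, n = 23), and less so in IVO (rho -0.28, r -0.29, n = 19). Given the number of windows, these were -0.38 and 0.18.

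**Figure D4:**
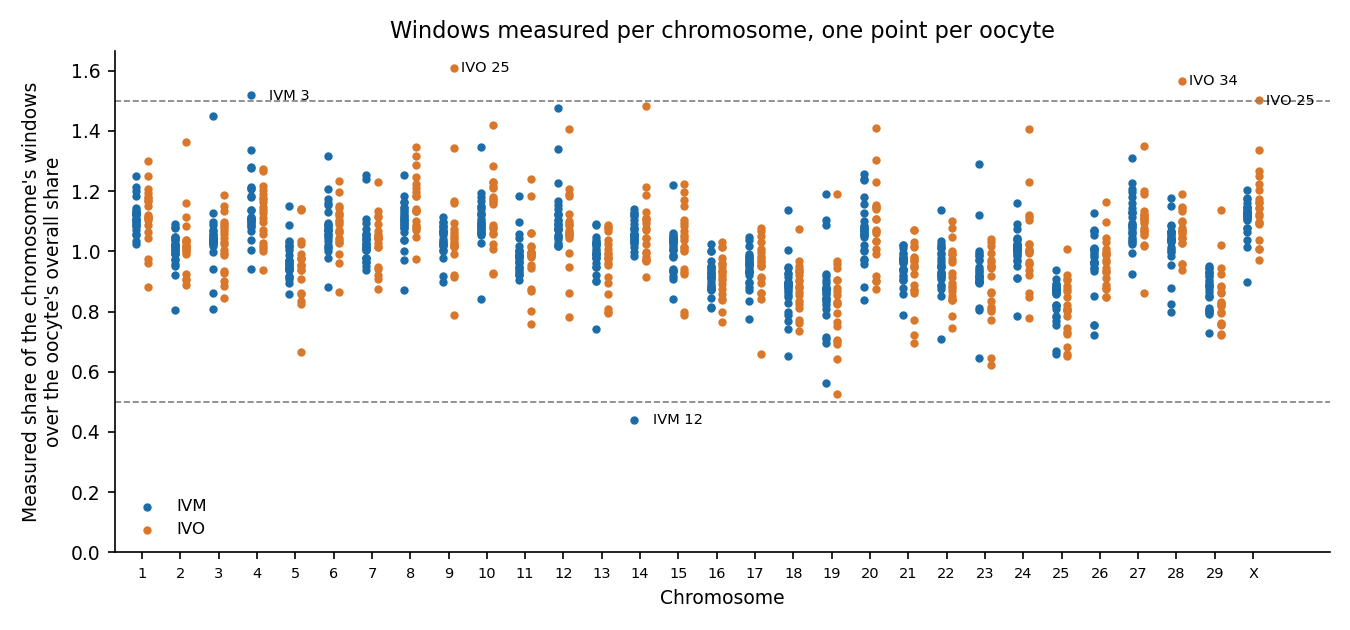
Share of each chromosome's windows measured over the oocyte's overall share, with a point for each of 26 IVM and 20 IVO oocytes and dashed lines at 0.5 and 1.5. The point at 0.44 is chromosome 14 of IVM oocyte 12, and the other IVM oocytes lie at 0.98 to 1.14 on that chromosome.

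Finally, the 4 oocytes without RNA values were set beside the others in methylation. IVM oocyte 5 had 28291 windows, a mean of 56.1% and a mitochondrial level of 30.1%, and IVM oocyte 40 had 23707 windows, a mean of 56.3% and a mitochondrial level of 3.53%. IVO oocyte 24 had 24203 windows, a mean of 61.8% and a mitochondrial level of 11.3%. These values lay inside the ranges of the oocytes with both assays, and the windows of oocytes 5 and 24 were above the group medians. IVM oocyte 7 was poorly measured, with 9330 windows, a mitochondrial level of 9.78% and a mean of 76.4%, which was just above the highest mean of the other IVM oocytes, 76.3%. In the highly methylated windows, oocyte 40 had a mean of 85.7%, below the lowest IVM oocyte with both assays, 87.1%. Of the 4 oocytes without RNA values, 1 thus had a low number of windows.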

How the data were processed

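The members and lists were chosen with earlier results of these data known. RNA and DNA of each oocyte were paired by the library number that names both. The submitters' processing notes name the genome build UMD3.1, Trim Galore 0.4.4, HISAT2 2.1.0 and Bismark 0.18.2, and list RSEM 1.3.3, R 4.2.2 and edgeR 3.38.4 without a role. RNA values were used as a deposited score, which the authors had scaled to a common upper quartile (61) and rounded to whole numbers. Methylation values were used as deposited, as a percent of CpG calls per window. Numbers of reads and calls are not used here, so no interval was computed. RNA columns without finite values (8) were not used.

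Measures, distances and Spearman's and Pearson's correlations were computed with Python 3.11.15, numpy 2.4.6, pandas 2.3.3 and scipy 1.17.1, with a pseudocount of 1, genes with a mean of at least 10, the 500 genes of highest variance for PC1 (signed to rise with genes above 0), and a rho of 0.5 in size for genes. Partial rank correlations removed the ranks of the named measure. Figures were drawn with matplotlib 3.10.9. The code was tested on simulated data. Genes are listed by number, so the rule for naming genes (the 5 largest rhos of each sign shared by both groups) was not applied, and no check by oocyte and cumulus cell markers was made. Alternatives covered the coefficient, the oocytes included, thresholds, filters, pseudocount, distances and methylation measures.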

Additional observations from a re-analysis of the deposited data

How the results depend on the processing

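Over the 18 relations of RNA and methylation measures, 163 of 193 alternatives stayed within the formula spread of the correlation (1 over the root of n minus 3, on Fisher's z), 25 moved beyond it and 5 changed the sign of a rho of at least 0.3 in size. Of the 163, 15 left no oocyte out and could not move, so 148 of 178 others stayed. The formula takes oocytes as independent, which they may not be, so the spread served only as a yardstick. A small rho could change sign within it, as PC1 with the MT mean did in IVM (0.03, or -0.19 given the windows measured). With windows of at least 80% only, the relation to the window mean became 0.046 for genes above 0, -0.30 for the share of the 100 highest genes and 0.30 for PC1 in IVM, and 0.28, -0.26 and 0.42 in IVO. Given the windows measured, it became 0.11 for PC1 in IVM, and 0.21 for genes above 0, -0.30 for the share and 0.18 for PC1 in IVO. With at least 15000 windows it became -0.037 for PC1 in IVM, and 0.25, -0.0066 and 0.095 in IVO, and with windows measured the IVO values became -0.068, -0.24 and 0.081. In IVM library numbers 1 to 18, relations to the MT mean became 0.19, -0.082 and 0.32. In 39 to 46, genes above 0 gave -0.86 with the window mean and -0.86 with the MT mean, the share 0.11 with the MT mean and PC1 0.89 with windows measured. For IVM, genes of at least 10 gave -0.35 with the MT mean, the 20 highest genes -0.13 with the window mean and 0.11 with windows measured, PC1 over all genes -0.20 with the MT mean, and Pearson's r -0.51 for PC1 with the window mean. For IVO, a pseudocount of 10 gave 0.53 for PC1 with the MT mean. The causes were not tested.

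The distances were related at 0.065 in IVM once the pair's windows and genes were accounted for, which alone of 22 alternatives left the spread. Library numbers 39 to 46, where the rho was 0.90 (21 pairs of 7 oocytes), were not among these alternatives. Genes following the window mean numbered 126 and 76 (IVM, IVO) with a mean of at least 50, or 6.19 and 3.74% of the 2034 genes left, and 45 and 41 at a rho of 0.6, where fewer genes could pass. In IVM they numbered 383 in library numbers 1 to 18 (n = 16) and 100 with at least 15000 windows (n = 19), whereas in IVO they rose to 204 with that limit (n = 14). A fixed rho can be passed more easily with fewer oocytes, but the IVM count fell with that limit, and the causes were not tested. Counts of shared closest oocytes were unchanged in all 4 alternatives (5 in IVM, 1 in IVO).

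Reads per RNA library, calls per window and the cow of an oocyte were not used here, and library numbers separate IVO from IVM, which limits every relation. The part of depth in low counts of genes and windows was not tested. Library numbers 39 to 46 hold 7 oocytes, so 1 oocyte can set a value there.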

Other observations

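Among oocytes with at least 15000 windows, a limit applied here after the data were seen, the share of a chromosome measured was also divided by the chromosome's median over oocytes. The lowest value was chromosome 14 of IVM oocyte 12, at 0.42, and the next lowest was chromosome 17 of IVO oocyte 34, at 0.69. Among the high values, chromosome 23 of IVM oocyte 13 reached 1.40 in an oocyte with 23865 windows, and chromosome 29 of IVO oocyte 37 reached 1.31 in an oocyte with 29245 windows. The remaining values among the 6 highest all belonged to IVO oocyte 34, which had 15528 windows.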
